A study of Mus musculus with 40 samples.

Results

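Krüppel-like factors (KLFs) are zinc-finger transcription factors that bind GC-rich and CACCC-type sequences, and several of them promote or hold back the formation of fat cells. The 10 members examined were Klf4, Klf5, Klf6, Klf9, Klf11, Klf13 and Klf15, known as activators of adipogenesis, and Klf2, Klf3 and Klf7, known as inhibitors. They are listed for these known roles, by a rule that uses no measured value. For each gene, the window ran from 20 kb before the gene to 20 kb after it on the mouse build mm10 (GENCODE annotation). The values were taken from peaks of H3K27ac, an acetylation of histone H3 found at active promoters and enhancers. The same values were computed for all 17717 protein-coding genes that had a peak in their window, of 21728 annotated on chromosomes 1 to 19 and X, and all 10 KLF genes were among those 17717.

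The study compared wild-type (WT) C57BL/6 mice with mice homozygous for the loss of both Hmgn1 and Hmgn2 (Hmgn1-/- and Hmgn2-/-, called DKO), which lack the nucleosome-binding proteins HMGN1 and HMGN2. Preadipocytes from the inguinal white fat of young adult mice were grown to confluence (day 0) and then driven towards brown-like adipocytes, with ChIP-seq of H3K27ac at days 0, 3, 6 and 9. Each of the 8 groups of genotype and day had 3 libraries. The inducing medium, the same for both genotypes, held insulin at 0.5 µg/ml, dexamethasone at 5 µM, IBMX at 0.5 mM, T3 at 1 nM and rosiglitazone at 1 µM for 4 days, followed by insulin and T3 alone for another 4 days. The study calls its replicates biological, but the labels do not state that the 3 libraries of a group came from separate animals or cultures, so a p-value here measures the spread between libraries, which may be technical. The cultures were analysed in bulk, so a longer stretch of acetylation in each cell and a larger share of cells carrying it cannot be told apart.

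In the textbook sequence of adipogenesis, hormonal inducers raise early factors such as KLF4, C/EBPβ and C/EBPδ, which then induce Pparg and Cebpa, the master regulators of the fat cell. KLF5, KLF9, KLF13 and KLF15 act on or beside PPARγ at the middle and late steps, and KLF9 and KLF15 are also glucocorticoid-responsive genes. KLF2 represses the Pparg promoter in preadipocytes, and KLF3 represses Cebpa through the corepressor CtBP.

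A choice of acetylated regions whose calls differed between days or genotypes is shown as 300 bases around their strongest summit, on the plus strand of mm10. Regions are peaks of the 24 libraries that were joined where they overlapped. Capitals mark matches to 4 short patterns searched on both strands, namely TGACTCA for AP-1, TTGCNNAA for C/EBP, ACANNNTGT for the glucocorticoid receptor and CCACNCCC for KLF proteins, and the PPAR DR1 element, also searched, had no match in the sequences shown. No 2 matches shown overlapped. The patterns of AP-1, C/EBP, the glucocorticoid receptor, KLF and PPAR DR1 occurred in 5.81%, 11.6%, 9.59%, 8.3% and 0.633% of 169340 regions genome-wide, in that order. A match is a description of the letters and was not tested as a binding site.
Klf7 intragenic, called at day 0 and lost by day 6, chr1:64077961-64078260: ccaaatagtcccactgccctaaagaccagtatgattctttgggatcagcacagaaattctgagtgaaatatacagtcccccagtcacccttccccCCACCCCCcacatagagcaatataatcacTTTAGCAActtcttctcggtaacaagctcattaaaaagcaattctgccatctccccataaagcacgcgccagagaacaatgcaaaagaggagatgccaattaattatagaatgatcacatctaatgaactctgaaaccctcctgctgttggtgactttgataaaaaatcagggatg
Klf7 downstream, called at day 9, chr1:64020622-64020921: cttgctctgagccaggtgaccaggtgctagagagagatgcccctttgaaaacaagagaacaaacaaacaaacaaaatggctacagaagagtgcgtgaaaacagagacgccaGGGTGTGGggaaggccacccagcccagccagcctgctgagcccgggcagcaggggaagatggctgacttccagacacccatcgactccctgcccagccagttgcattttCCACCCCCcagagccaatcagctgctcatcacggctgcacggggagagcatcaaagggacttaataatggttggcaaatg
Klf13 upstream, called at day 9, chr7:63940815-63941114: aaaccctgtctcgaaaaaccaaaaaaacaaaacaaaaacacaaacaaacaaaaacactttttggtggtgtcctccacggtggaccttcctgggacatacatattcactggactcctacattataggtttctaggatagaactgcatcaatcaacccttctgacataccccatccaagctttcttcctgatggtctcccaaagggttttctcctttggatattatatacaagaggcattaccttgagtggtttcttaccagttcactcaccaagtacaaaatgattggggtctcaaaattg
Klf13 intronic, called from day 3 on, chr7:63917875-63918174: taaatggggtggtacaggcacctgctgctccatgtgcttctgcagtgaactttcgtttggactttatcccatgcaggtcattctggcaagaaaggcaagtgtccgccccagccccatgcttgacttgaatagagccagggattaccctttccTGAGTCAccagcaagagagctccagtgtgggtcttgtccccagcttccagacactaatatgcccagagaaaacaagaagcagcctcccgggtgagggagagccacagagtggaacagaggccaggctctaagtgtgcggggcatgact
Klf5 promoter, called mostly at day 9, chr14:99298240-99298539: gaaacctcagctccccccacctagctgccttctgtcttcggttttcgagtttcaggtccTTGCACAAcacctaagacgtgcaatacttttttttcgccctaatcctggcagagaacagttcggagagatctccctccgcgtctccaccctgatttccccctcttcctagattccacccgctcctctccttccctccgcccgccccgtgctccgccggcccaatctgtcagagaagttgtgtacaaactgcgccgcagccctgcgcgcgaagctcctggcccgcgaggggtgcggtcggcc
Klf9 distal upstream, called more often in DKO, chr19:23125631-23125930: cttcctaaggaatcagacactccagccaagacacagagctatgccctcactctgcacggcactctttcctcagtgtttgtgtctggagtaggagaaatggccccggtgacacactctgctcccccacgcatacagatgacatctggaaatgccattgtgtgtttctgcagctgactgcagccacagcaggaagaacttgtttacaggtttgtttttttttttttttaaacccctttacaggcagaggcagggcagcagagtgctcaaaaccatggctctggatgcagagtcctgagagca
Klf15 downstream inside Aldh1l1, called in DKO at day 9, chr6:90492757-90493056: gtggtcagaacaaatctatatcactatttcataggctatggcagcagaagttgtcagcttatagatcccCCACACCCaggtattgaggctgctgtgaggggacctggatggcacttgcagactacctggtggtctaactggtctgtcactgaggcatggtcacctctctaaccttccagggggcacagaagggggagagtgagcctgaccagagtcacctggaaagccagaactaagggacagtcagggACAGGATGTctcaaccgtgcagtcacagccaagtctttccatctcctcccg
The Klf7 day 0 region held a C/EBP and a KLF match, and the day 9 region downstream of Klf7 held 2 KLF matches. The Klf13 intronic region held an AP-1 match and the Klf5 promoter region a C/EBP match. The region inside Aldh1l1 held a KLF and a glucocorticoid receptor match. The Klf13 upstream and Klf9 distal regions held no match to any of the patterns.

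The 24 libraries differed in how much of the genome their peaks covered, and that moved with genotype and day. Total covered length was 57.5 ± 2.6 Mb in WT and 30.8 ± 8.76 Mb in DKO at day 6 (SD, n = 3 each), and 55.4 ± 6.32 Mb in WT and 64.5 ± 3.9 Mb in DKO at day 9. WT day 3 replicate 3 was the shallowest library, with 4.5 background reads per kb against 8.61 to 12.8 in the others, as worked back from fold and p of each peak. DKO day 0 replicate 2 stood apart with a median peak of 1076 bp, against 376 bp or less elsewhere, and with 96.4 Mb covered, against 68.8 Mb or less. Summed over 6 of 6 adipocyte markers, peak length per library ranged from 17.7 to 46.7 kb at day 0 and from 73.5 to 118 kb at day 9. For 6 of 6 preadipocyte and stromal markers the ranges were 61.6 to 97 kb and 53.1 to 65.5 kb, and for the 5 brown-like markers they were 6.43 to 13.5 kb and 10 to 20.8 kb, with no Ucp1 peak at days 0 and 3. For 5 of 5 macrophage and leukocyte markers they were 40.5 to 90.6 kb and 16.8 to 24.8 kb. Endothelial markers (10.4 to 24.2 kb and 3.75 to 7.71 kb) had peaks at 5 of 5 genes at day 0 and at 4 at day 9, without Cdh5. Muscle markers (3 of 5 genes at both days) covered 5.53 to 15.8 kb and 0.853 to 2.85 kb and epithelial markers (2 of 4) 2.6 to 6.73 kb and 3.71 to 7.9 kb, with Myod1, Epcam and Krt18 at 0 in every library. The part of such other cells in the KLF values was not tested. As a check of the labels, the Hmgn2 window had 1.64 kb less peak length in DKO (adjusted p = 0.017, exact permutation test over days), and the Hmgn1 window differed by 0.396 kb (adjusted p = 0.882), although peak lists do not show a deletion itself.

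The KLF windows were densely acetylated. The median share of a window under peaks was 13.2% for the 10 members and 3.79% for all genes tested. Per length of window, Klf13 had the highest mean share over the 24 libraries, 32.2%, followed by Klf6 with 29.3%, Klf9 with 23.7%, Klf3 with 19.4%, Klf4 with 15.7%, Klf15 with 10.7%, Klf2 with 8.5%, Klf7 with 4.36%, Klf11 with 3.8% and Klf5 with 0.219%. Klf5 was the only member without a peak in every library, and it had peaks in 12 of 24.

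Between day 0 and day 9, 4 of 10 members gained covered length (Klf5, Klf9, Klf13 and Klf15, all activators) and 3 lost it (Klf6, Klf11 and Klf2), with exact permutation tests of day within genotype, two-sided, p adjusted by Benjamini-Hochberg over all 17717 genes. Among all genes, 17.1% gained and 16.2% lost. From day 0 to day 3, 1 member gained (Klf13) and 3 lost (Klf6, Klf11 and Klf2), against 1.47% and 32.8% of all genes. No member passed from day 3 to day 6, and neither did any gene of the genome, with 0% higher and 0% lower, although 4 members and 4401 genes had an unadjusted p under 0.05. From day 6 to day 9, 2 members gained (Klf5 and Klf11) and 0 lost, against 10% and 0.0282% of all genes. The median change from day 0 to day 9 was 0.219 kb over the 10 members and 0.0293 kb over all genes, and for the 7 activators it was 2.33 kb and for the 3 inhibitors −1.42 kb. The smallest p of these tests is 0.005, reached by 4617 genes between day 0 and day 9. From day 3 to day 6 it was reached by 1547 genes, which left 0.0573 as the lowest adjusted p of that step (exact permutation tests). The 0 calls from day 3 to day 6 therefore do not show that lengths stayed unchanged.

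**Figure D1:**
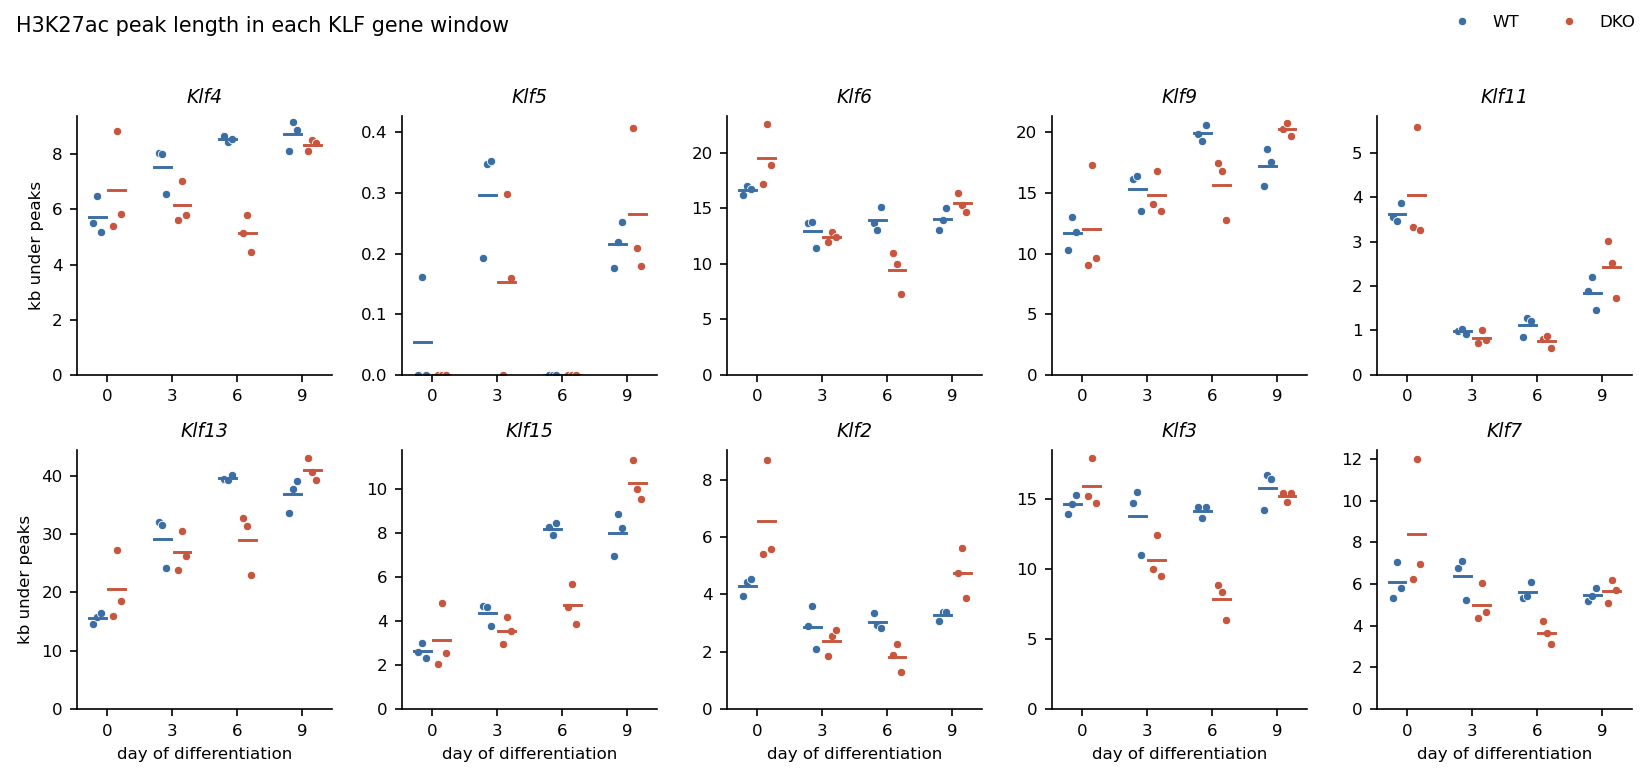
Kilobases under H3K27ac peaks (vertical axis, linear, from 0, a separate scale for each gene) in each KLF window against day of differentiation, with 1 point for each library and a bar at the mean of the 3 libraries of WT (blue) or DKO (red). Klf13, Klf9 and Klf15 climb from day 0 to day 9 in both genotypes, and at day 6 the DKO points of 8 genes lie below WT, which does not hold once lengths are scaled to the total covered length of each library.

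Klf15 (chr6:90462576-90475238, plus strand) had the highest ratio of day 9 to day 0 among the 9 members with peaks in every library. It encodes a late activator that induces Slc2a4, the insulin-responsive glucose transporter GLUT4. At day 0, covered length was 2.59, 2.99 and 2.33 kb in the WT libraries and 2.03, 4.83 and 2.54 kb in the DKO libraries. At day 9 it was 6.95, 8.87 and 8.21 kb in WT and 11.3, 10 and 9.55 kb in DKO. Every day 9 library lay above every day 0 library of its genotype, and the ratio of the means was 3.04 in WT and 3.29 in DKO. The change averaged over genotypes was 6.28 kb (adjusted p = 0.0192, exact permutation test). The window reaches into the neighbour Aldh1l1. Ordered by mean, the 8 groups ran from WT day 0 (2.64 ± 0.333 kb, SD, n = 3) through DKO day 0, DKO day 3, WT day 3 and DKO day 6 (4.73 ± 0.919 kb) to WT day 9, WT day 6 (8.19 ± 0.28 kb) and DKO day 9 (10.3 ± 0.918 kb). Neighbours in that order overlapped except at 2 steps, between DKO day 6 and WT day 9 and between WT day 6 and DKO day 9.

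Klf13 (chr7:63886351-63938915, minus strand) had the highest median covered length of the 10 members over the 24 libraries, and its product promotes adipogenesis upstream of Pparg. The WT libraries had 14.5, 15.7 and 16.4 kb at day 0 and 33.6, 37.8 and 39.1 kb at day 9. The DKO libraries had 15.9, 27.2 and 18.6 kb at day 0 and 43, 40.6 and 39.3 kb at day 9. Day 9 lay above day 0 without overlap in both genotypes, a mean gain of 20.8 kb (adjusted p = 0.0192, exact permutation test). In lengths as deposited it was also the only member that gained between day 0 and day 3, by 9.97 kb (adjusted p = 0.0437, exact permutation test). With lengths scaled to the total, Klf4 (3.47 kb), Klf9 (9.51 kb), Klf15 (2.66 kb) and Klf7 (1.13 kb) gained at this step too (adjusted p = 0.0185 each, exact permutation tests). The Klf13 call was lost without any 1 of 9 libraries (adjusted p 0.0522 to 0.0774), namely all 3 of WT day 0, all 3 of DKO day 3, DKO day 0 replicates 1 and 3, and WT day 3 replicate 3. It was lost as well with no flank (adjusted p = 0.0565), a 5 kb flank (0.0503), the 20000 strongest peaks of each library (0.0918) and peaks cut to 250 bp either side of the summit (0.0506, exact permutation tests). Most of the gain lay inside the gene. Its regions in exons and introns covered 8.33 ± 0.25 kb in WT at day 0 and 25.2 ± 2.27 kb at day 9, while the start regions went from 6.77 ± 0.775 to 9.44 ± 0.237 kb (SD, n = 3). The window also holds the gene E030018B13Rik, whose acetylation cannot be told apart from that of Klf13 here.

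Klf9 (chr19:23141226-23168134, plus strand), a glucocorticoid-responsive activator of Pparg, gained 6.9 kb from day 0 to day 9 (adjusted p = 0.0192, exact permutation test). The WT libraries went from 10.3, 13 and 11.8 kb to 15.6, 18.6 and 17.6 kb, and the DKO libraries from 9.1, 17.3 and 9.64 kb to 20.3, 20.8 and 19.7 kb. The call was lost with peaks cut to 250 bp either side of the summit (1.23 kb, adjusted p = 0.46) and with the 20000 strongest peaks of each library (6.79 kb, adjusted p = 0.104, exact permutation tests). No day 9 library overlapped day 0 of its genotype, and the DKO day 0 library of 17.3 kb was replicate 2, the library with the wide peaks. Without DKO day 9 replicate 2 the adjusted p of the exact test was 0.0605, and without DKO day 0 replicate 2 the step from day 0 to day 3, 3.25 kb (adjusted p = 0.113), passed as well (adjusted p = 0.0215). The change from day 6 to day 9, 0.933 kb (adjusted p = 0.68), became −6.23 kb and passed when lengths were scaled to each library's total covered length (adjusted p = 0.033, exact permutation tests).

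Klf5 (chr14:99298691-99315036, plus strand), an early activator induced by C/EBPβ and C/EBPδ that acts on Pparg, was nearly bare of the mark. At day 0, 1 of 6 libraries had a peak (WT replicate 2, 0.161 kb). At day 3 the WT libraries had 0.192, 0.348 and 0.352 kb and the DKO libraries 0, 0.298 and 0.16 kb, at day 6 all 6 libraries had 0, and at day 9 the WT libraries had 0.177, 0.219 and 0.252 kb and the DKO libraries 0.407, 0.21 and 0.18 kb. The tests passed for the gains from day 0 to day 9 (0.214 kb, adjusted p = 0.0192) and from day 6 to day 9 (0.241 kb, adjusted p = 0.0497, exact permutation tests), but the day 9 peaks behind them had top folds of only 3.66 to 6.43. The first call was lost with peaks of −log10 q of at least 5 (0.12 kb, adjusted p = 0.122), with peaks cut around the summit (0.5 kb, 0.0682) and in the window with no flank (0.0698 kb, 0.688, exact permutation tests). The second was lost when any 1 of 11 of the 12 libraries of days 6 and 9 was left out (adjusted p 0.0515 to 0.0873), the exception being WT day 9 replicate 1.

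Klf4 (chr4:55527143-55532466, minus strand), the early activator of Cebpb together with Egr2, had a promoter region called in every library. Covered length was 5.5, 6.48 and 5.17 kb in WT and 5.39, 8.85 and 5.82 kb in DKO at day 0, and 8.13, 9.16 and 8.88 kb in WT and 8.12, 8.52 and 8.41 kb in DKO at day 9. The gain of 2.33 kb missed the threshold (adjusted p = 0.0552, exact permutation test), and it passed without DKO day 0 replicate 2, whose 8.85 kb exceeded the other day 0 libraries (2.87 kb, adjusted p = 0.0142). It passed too with no flank (1.6 kb), a 5 kb flank (2.16 kb), a 50 kb flank (3.46 kb) and lengths scaled to the total (1.85 kb, adjusted p 0.0127 to 0.0432 over these, exact permutation tests). WT day 9 lay above WT day 0 without overlap, while DKO overlapped.

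Klf6 (chr13:5861482-5870394, plus strand), which promotes adipogenesis by repressing the preadipocyte factor Dlk1, lost covered length early. The WT libraries had 16.2, 17 and 16.8 kb at day 0 and 13.7, 13.8 and 11.4 kb at day 3, and the DKO libraries had 17.2, 22.6 and 18.9 kb and 12, 12.9 and 12.4 kb. All day 3 libraries lay below all day 0 libraries. The length fell by 5.41 kb from day 0 to day 3 (adjusted p = 0.0202, exact permutation test), but the change was 0.639 kb with lengths scaled to the total and 0.211 kb with each peak cut to 250 bp either side of its summit. Between day 0 and day 9 the length fell by 3.37 kb (adjusted p = 0.0192), against a change of 0.932 kb with the cut peaks that did not pass (adjusted p = 0.763, exact permutation test). Both calls were lost with no flank, where the change was −0.326 kb to day 3 (adjusted p = 0.217) and −0.147 kb to day 9 (0.423, exact permutation tests). Without DKO day 3 replicate 1 or 3 the first step had an adjusted p of 0.0532 to 0.057 in the exact test.

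Klf11 (chr12:24651274-24662789, plus strand), known as a partner of PPARγ in brown-like fat cells, showed a fall that lay outside the gene. At day 0 the covered length was 3.55, 3.47 and 3.87 kb in WT libraries and 3.34, 5.59 and 3.26 kb in DKO libraries. Day 3 brought it to 0.998, 1.03 and 0.922 kb in WT and 0.715, 1 and 0.779 kb in DKO. By day 9 it was 1.89, 2.2 and 1.47 kb in WT and 3.01, 2.53 and 1.73 kb in DKO, between the other two days in each genotype. Averaged over genotypes, the length fell by 2.94 kb to day 3 (adjusted p = 0.0202), rose by 1.2 kb from day 6 to day 9 (adjusted p = 0.0497) and fell by 1.71 kb from day 0 to day 9 (adjusted p = 0.0192, exact permutation tests), the last with its sign turned in narrower windows. That last call was also lost with a 50 kb flank (−0.515 kb, adjusted p = 0.784), the 20000 strongest peaks (−0.909 kb, 0.266) and cut peaks (−0.608 kb, 0.572), and the step to day 3 with cut peaks (−2.12 kb, 0.102, exact permutation tests). The moving stretch was a region 30.3 kb past the start of Klf11, over the start of its neighbour Cys1 (chr12:24678928-24682515), which was named after its values were seen. It covered 2.37 ± 0.135 kb in WT at day 0, 0 kb at days 3 and 6, and 0.52 ± 0.393 kb at day 9 (SD, n = 3). The region at the start of Klf11 itself held 1.26 ± 0.084 kb at day 0 and 1.33 ± 0.0896 kb at day 9 in WT, and with windows of no flank or of 5 kb the change from day 0 to day 9 was 0.0545 kb and 0.158 kb. The call from day 0 to day 9 was lost without DKO day 9 replicate 2 or 3 (adjusted p 0.0603 to 0.0605), that to day 3 without DKO day 3 replicate 1 or 3 (0.0532 to 0.057), and that from day 6 to day 9 without any 1 of the 12 libraries other than WT day 9 replicate 1 (0.0515 to 0.0896).

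**Figure D2:**
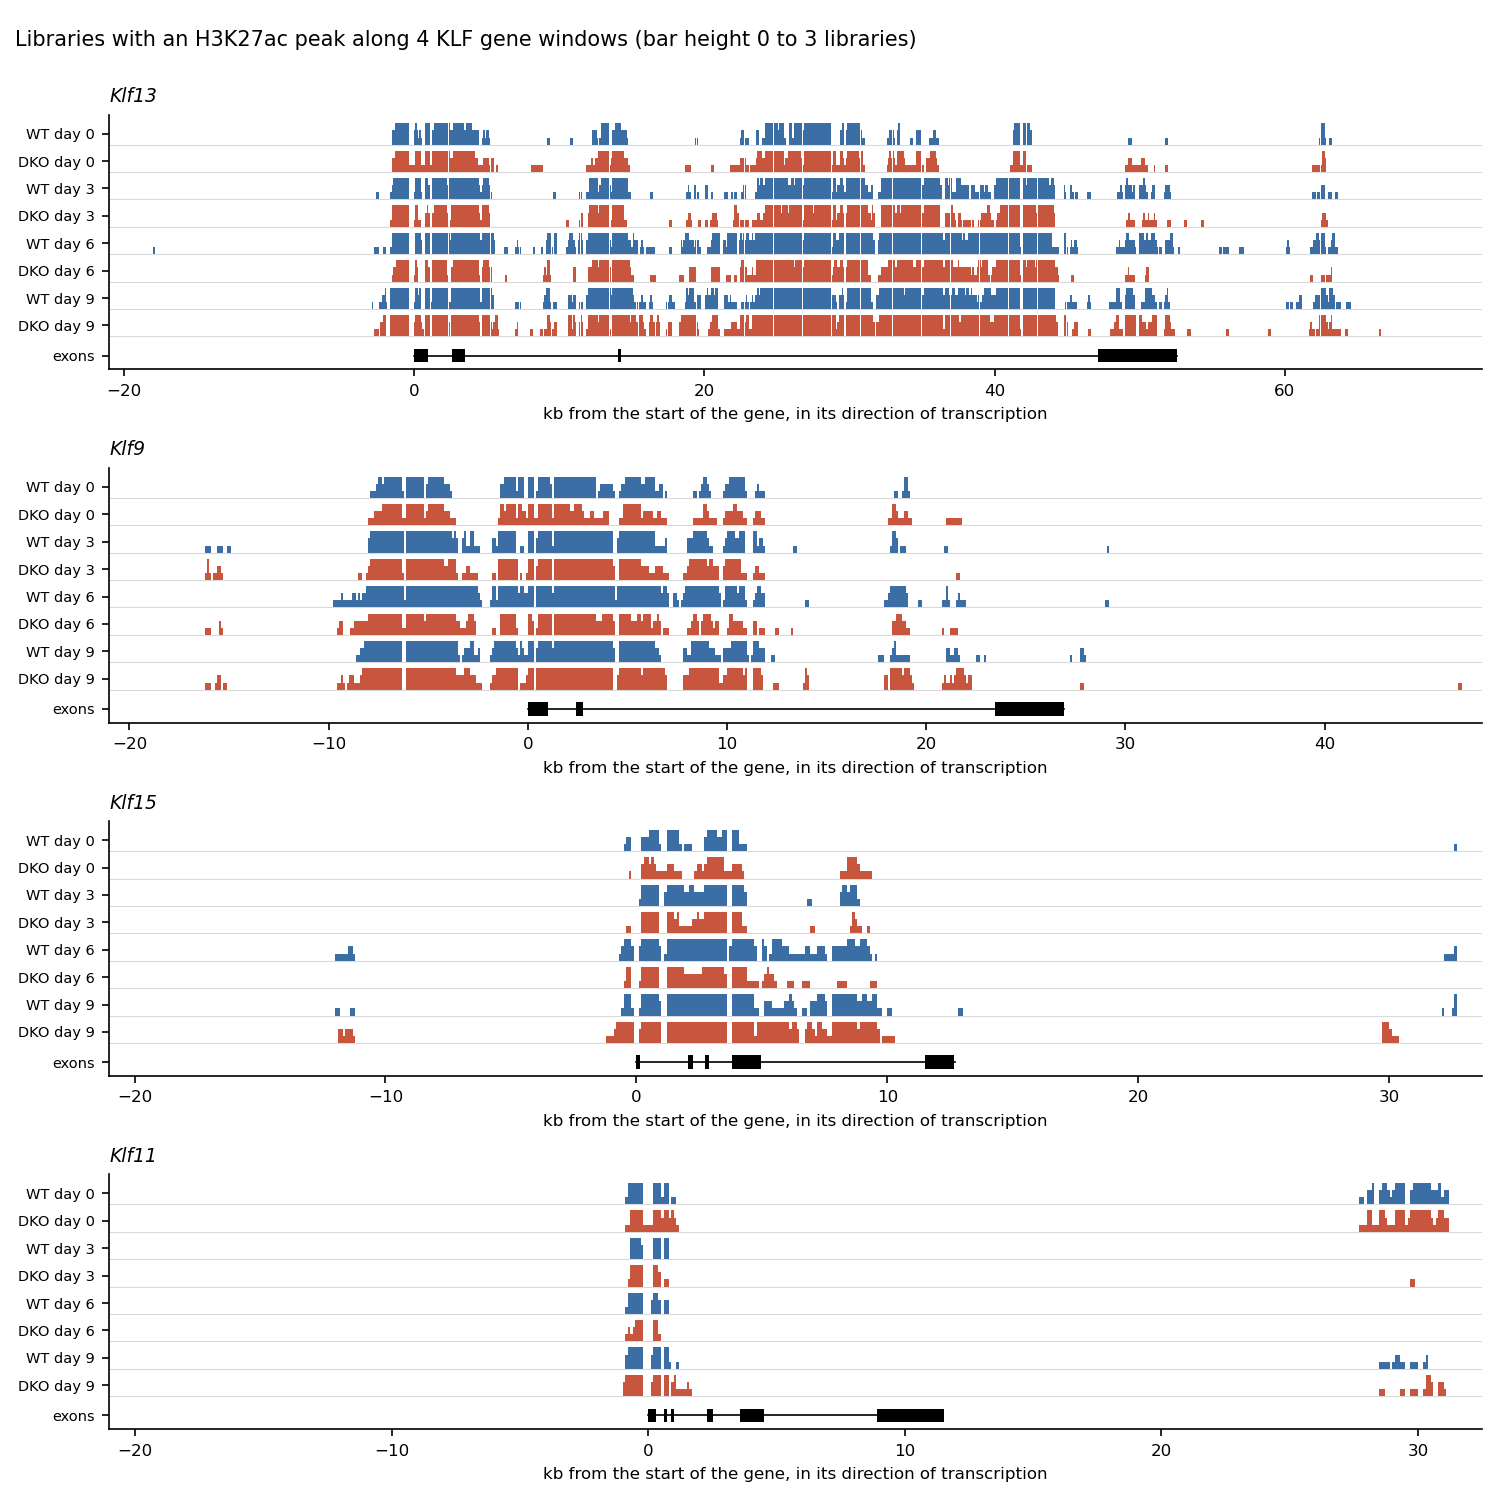
Number of libraries (bar height, 0 to 3) with an H3K27ac peak along the windows of Klf13, Klf9, Klf15 and Klf11, by distance in kb from the start of the gene in its direction of transcription, with WT in blue, DKO in red and exons in black. Peaks fill the last intron of Klf13, ahead of its last exon, from day 3 on, and the Klf11 change sits 30.3 kb from the start, at the neighbour Cys1, while peaks at the Klf11 start are present at all days.

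Among the inhibitors, Klf2 (chr8:72319033-72321656, plus strand, with Gm10282 and Eps15l1 in its window), which represses the Pparg promoter, lost covered length early. At day 0 it was 3.95, 4.42 and 4.55 kb in WT and 5.42, 8.67 and 5.59 kb in DKO. At day 3 it was 2.89, 3.58 and 2.1 kb in WT and 1.85, 2.54 and 2.75 kb in DKO, below every day 0 library. The fall of 2.81 kb passed (adjusted p = 0.0202, exact permutation test). By day 9 the libraries held 3.07, 3.39 and 3.37 kb in WT and 4.76, 5.62 and 3.86 kb in DKO, and the length had fallen by 1.42 kb from day 0 (adjusted p = 0.0451, exact permutation test). That second call was lost without DKO day 0 replicate 2 or without any 1 of the 6 day 9 libraries (adjusted p 0.0574 to 0.138), and the first without DKO day 3 replicate 1 or 3 (0.0532 to 0.057). With peaks cut to 250 bp either side of the summit the change to day 9 was −0.0775 kb (adjusted p = 1) and with no flank −0.428 kb (0.212), while the change to day 3 was −1.37 kb with cut peaks (0.193) and −2.7 kb with the 20000 strongest peaks (0.103, exact permutation tests), so that neither passed.

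Klf3 and Klf7 passed no test between days in the windows with a 20 kb flank and all peaks. Klf3 (chr5:64803388-64832901, plus strand), the CtBP-recruiting repressor of Cebpa, held 13.9, 14.6 and 15.3 kb in WT and 15.2, 17.9 and 14.7 kb in DKO at day 0, and 14.2, 16.7 and 16.4 kb in WT and 15.4, 14.8 and 15.4 kb in DKO at day 9. The groups overlapped, and the change of 0.225 kb did not pass (adjusted p = 0.916, exact permutation test). Klf7 (chr1:64029447-64122282, minus strand), an inhibitor of fat cell formation, went from 5.34, 7.07 and 5.83 kb to 5.2, 5.42 and 5.83 kb in WT and from 6.25, 12 and 6.97 kb to 5.1, 6.22 and 5.71 kb in DKO, a change of −1.66 kb (adjusted p = 0.0975, exact permutation test). It passed without WT day 0 replicate 1 (adjusted p = 0.0346, exact permutation test). It also passed with peaks of −log10 q of at least 5 (−1.59 kb), with no flank (−1.8 kb), with a 5 kb flank (−1.89 kb) and with scaled lengths (−1.45 kb, adjusted p 0.0127 to 0.0484 over these, exact permutation tests). Scaling turned its change from day 0 to day 3 into a gain of 1.13 kb that passed (adjusted p = 0.0185, exact permutation test).

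Averaged over the 4 days, no KLF window passed the test of DKO against WT. Of the 10 members, 0 passed the exact permutation test of the mean DKO minus WT difference (160000 relabellings of genotype within day), against 0.158% of all genes. At an unadjusted p under 0.05 there were 2 members and 1676 genes. These were Klf3, −2.15 kb (adjusted p = 0.397), and Klf4, −1.05 kb (adjusted p = 0.5, exact permutation tests). The median difference was −0.277 kb over the members and −0.0145 kb over all genes. Without both libraries that stood apart, an alternative added after the data were seen, Klf4 passed (−1.44 kb, adjusted p = 0.0481), and with lengths scaled to the total covered length Klf2 passed (0.5 kb, adjusted p = 0.0399, exact permutation tests).

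The genotypes differed by day. At day 6, the DKO libraries of 8 members lay below all WT libraries (Klf4, Klf6, Klf9, Klf13, Klf15, Klf2, Klf3 and Klf7) and those of 0 members above, but 66.6% of all genes also lay below and 0.0847% above. Marker genes moved with that difference. The summed length over the 6 preadipocyte and stromal markers was 52.9 to 57.5 kb in WT against 13.1 to 22.5 kb in DKO, with 5 of 6 lower by mean (Pdgfra, Pdgfrb, Cd34, Thy1 and Col1a1) and Dlk1 at 0 in both. Over the 6 adipocyte markers the WT libraries held 95.9 to 100 kb and the DKO libraries 65.1 to 96.3 kb, which overlapped, and over the 5 endothelial markers 4.23 to 4.44 kb and 1.17 to 2.38 kb. The 5 brown-like markers held 12.6 to 13.3 kb in WT against 6.76 to 12.3 kb in DKO. By mean, 4 of these 5 were lower in DKO (Ucp1, Cidea, Ppargc1a and Cox7a1). The macrophage, muscle and epithelial lists overlapped. The part of all these lists in the day 6 difference was not tested. At day 9, the DKO libraries of 4 members lay above WT (Klf9, Klf13, Klf15 and Klf2) and of 0 below, against 32.9% and 1.63% of genes. The adipocyte markers then held 73.5 to 85.7 kb in WT against 110 to 118 kb in DKO. Further lists also lay above WT without overlap, namely brown-like (10 to 13.6 against 18.2 to 20.8 kb), macrophage (16.8 to 19.8 against 21.1 to 24.8 kb), muscle (0.853 to 2.03 against 2.51 to 2.85 kb) and epithelial (3.71 to 5.91 against 6.79 to 7.9 kb). The stromal and endothelial lists overlapped. The part of these markers in the day 9 difference was not tested. At day 0, DKO lay above WT for 2 members (Klf6 and Klf2) and below for 0, against 19.3% and 0.762% of genes, and at day 3 for 0 members in either direction, against 0.491% above and 9.6% below. The adipocyte, endothelial, macrophage, muscle and epithelial lists also lay above WT without overlap at day 0, while the brown-like and stromal lists overlapped. All marker lists overlapped at day 3. With 3 libraries against 3, the exact test at a day cannot go below p = 0.1.

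The largest day 6 gap was at Klf13, with 39.5, 39.2 and 40.1 kb in WT and 32.7, 31.3 and 23 kb in DKO. Klf3 held 14.4, 13.6 and 14.4 kb in WT and 8.83, 8.34 and 6.32 kb in DKO. Klf15 held 8.26, 7.88 and 8.43 kb in WT and 4.65, 5.69 and 3.86 kb in DKO. In each case the lowest WT library exceeded the highest DKO library, and the mean differences were −10.6, −6.31 and −3.45 kb. The median difference at day 6 was −3.43 kb over the members and −0.952 kb over all genes. After scaling to the total covered length, which was lower in DKO at that day, no member lay below WT and 4 lay above. These were Klf13 (by 14 kb), Klf9 (9 kb), Klf6 (3.53 kb) and Klf7 (1.34 kb). Of all genes, 15% then lay below and 38.4% above. The scaled median was 1.03 kb over the members and 0.29 kb over all genes.

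At day 9 the same scaling left only Klf15 above WT, by 0.766 kb, with 7.32 ± 0.218 scaled kb in WT and 8.09 ± 0.228 in DKO (SD, n = 3). Klf4 and Klf3 then lay below, by 1.43 kb and 2.49 kb. Of all genes, 14.7% lay above and 13.4% below in the scaled lengths of that day. At day 0 the scaling kept Klf2 above WT, by 0.744 kb, and put Klf9 below, by 2.64 kb, beside 12.2% and 11.2% of all genes. Which members stood apart at days 0, 6 and 9 thus depended on whether the total covered length of the library was divided out.

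**Figure D3:**
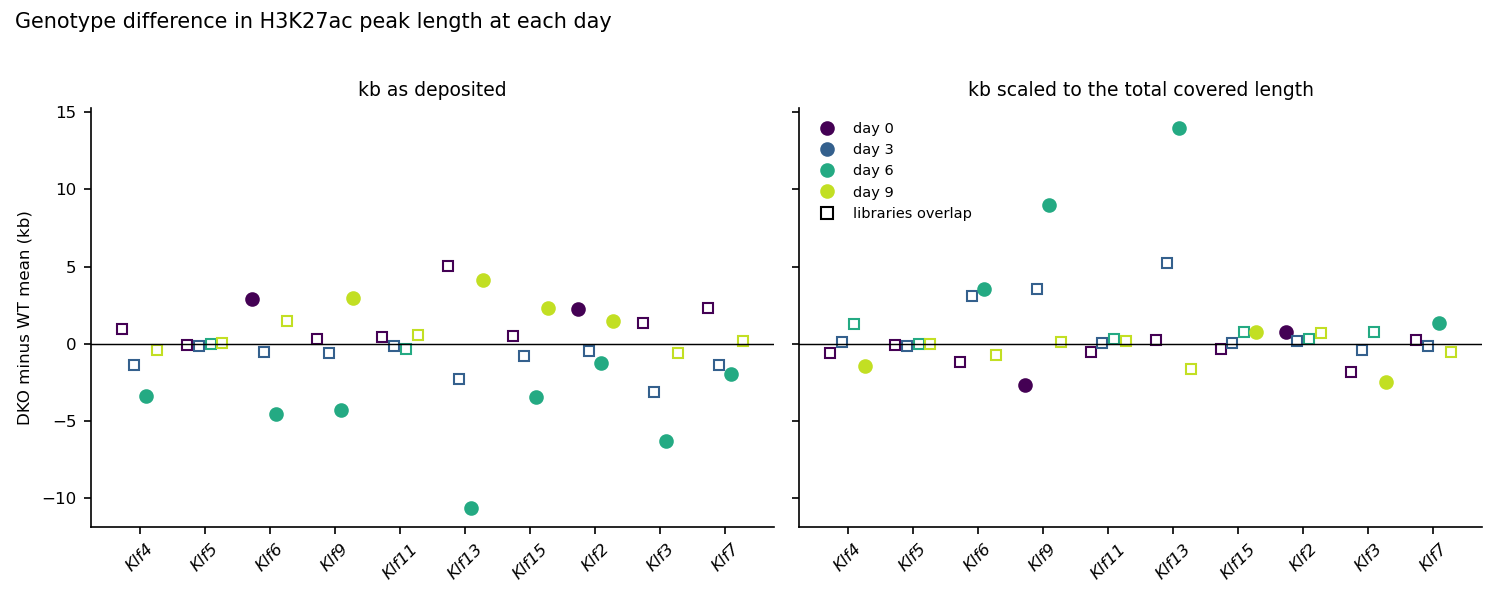
Mean DKO minus WT difference in kb under H3K27ac peaks (vertical axis, linear) for each KLF gene at days 0, 3, 6 and 9, as deposited (left) and scaled to the total covered length of each library (right). Filled circles mark days when the 3 DKO and 3 WT libraries do not overlap, and squares days when they do. The day 6 circles lie below 0 on the left and above 0 on the right.

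Whether the genotype difference changed with the day was tested on the spread of the 4 daily differences, with genotype permuted within each day. It did for 5 of 10 members, Klf6 (adjusted p = 0.0214), Klf2 (0.0237), Klf15 (0.0263), Klf13 (0.0335) and Klf7 (0.0477, exact permutation tests), against 28.9% of all genes. For Klf6 the DKO mean was 2.91 kb above WT at day 0, 4.54 kb below at day 6 and 1.45 kb above at day 9. Klf2 was above by 2.25 kb, below by 1.22 kb and above by 1.47 kb at those days. Klf15 was above by 0.496 kb, below by 3.45 kb and above by 2.3 kb. In all 3, day 6 stood against days 0 and 9. The calls of Klf6, Klf15 and Klf2 were lost without any 1 of the 3 WT day 0 libraries (adjusted p 0.0851 to 0.115 for Klf6 and Klf15, 0.0532 to 0.121 for Klf2, which was also lost without DKO day 6 replicate 3), and 0 members passed with lengths scaled to the total. Klf13 lost its call when any 1 of 9 libraries was left out (adjusted p 0.0502 to 0.125), the 3 of WT day 0, DKO day 0 replicate 2, WT day 6 replicate 3, WT day 9 replicate 1, DKO day 9 replicate 1 and replicate 3 of DKO at days 3 and 6. Klf7 lost its call when any 1 of 17 was left out (0.0504 to 0.207), that is, all but DKO day 0 replicate 1, WT day 3 replicate 3, DKO day 3 replicate 2, DKO day 6 replicate 1, WT day 9 replicates 2 and 3 and DKO day 9 replicate 3.

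Peak height, read as the highest fold enrichment over background in a window (top fold), placed the members in another order. Of the 10 members, 0 passed the test of DKO against WT over the 4 days, against 5.38% of all genes, and 4 members and 4395 genes had an unadjusted p under 0.05. The lowest p was that of Klf9, −0.26 on the log2 scale (adjusted p = 0.0721, exact permutation test), which passed without WT day 9 replicate 1 (adjusted p = 0.027). The rank of the best peak by q-value within its library, which does not depend on the scale of fold, passed for 0 members, against 2.9% of all genes, with 0 members and 3672 genes at an unadjusted p under 0.05. The ranks differed by −0.159 (Klf6) to 0.182 (Klf3) on the log10 scale.

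Klf15 and Klf2 were the 2 members whose height separated the genotypes at every day. The share of all genes that did so at every day was not computed. For Klf15, top folds at day 0 were 8.78, 9.43 and 13.7 in WT and 7.23, 6.43 and 6.57 in DKO. At day 3 they were 15.6, 17.1 and 14.7 in WT and 9.87, 12.1 and 11.1 in DKO. At day 6 they were 21, 24.6 and 25.8 in WT and 18.3, 18.7 and 14.2 in DKO. DKO was lower at these 3 days and higher at day 9, when WT had 12.6, 17.2 and 14.8 and DKO 23.4, 22.4 and 23.8. Thus the WT height peaked at day 6 and the DKO height at day 9, without a test of that order. Dividing each fold by the median fold of the 20000 strongest peaks of the library kept the separation at days 0, 3 and 9, and at day 6 the groups then overlapped (1.58 to 1.8 in WT, 1.65 to 1.67 in DKO).

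Klf2 also changed sides. Its DKO top folds lay above WT at day 0 (13.7 to 18.5 against 11.2 to 12.7) and at day 9 (13.8 to 17.4 against 9.22 to 13.7), and below at day 3 (6.16 to 8.75 against 11.6 to 15.5) and at day 6 (7.64 to 11 against 11.5 to 14.7). The nearest libraries at day 9 were close, 13.8 in DKO and 13.7 in WT. The window held regions of similar height at the Klf2 start (median fold 10.1) and 15.6 kb upstream, over an exon of Gm10282 (10.9). The start region fell to a fold of 5.79, under the lowest top fold of the window, 6.16. The top peak was therefore not always at the Klf2 start, and which peak was compared is not given. After division by the library median, the day 0 and day 3 separations stayed and those at days 6 and 9 did not. Over all members, DKO lay below WT for 1 member at day 0 (8.14% of genes), 2 at day 3 (24.8%), 6 at day 6 (46.6%) and 1 at day 9 (6.94%), and above for 1 (11.1%), 0 (2.46%), 0 (0.61%) and 2 (20.5%). After division by the library median, 3 members with peaks lay below at day 6 (Klf4, Klf9 and Klf3) and 1 above, Klf13 (1.88 to 2 in WT, 2.13 to 2.29 in DKO). At day 9, Klf9 and Klf13 then lay below and Klf15 above. The share of all genes that separated in these divided folds was not computed, so these counts cannot be set against the genome. In the values as deposited, the 1 member below at day 9 was Klf13, with 29.3, 29.3 and 23.1 in DKO and 29.5, 29.9 and 32.6 in WT, a gap of less than 1 fold unit between the nearest libraries.

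The height of the Klf9 peak was higher at day 3 than at day 0. In WT the day 0 top folds were 15.6, 17.6 and 18.5 and the day 3 top folds 38.2, 27.2 and 25.5. In DKO they were 16.2, 15.3 and 16.6 before induction and 22.8, 27.5 and 25.9 on day 3. Every day 3 library lay above every day 0 library, and the best rank of any peak in the window moved from 2996 or weaker at day 0 to 462 or stronger at day 3. Folds between days were not tested.

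**Figure D4:**
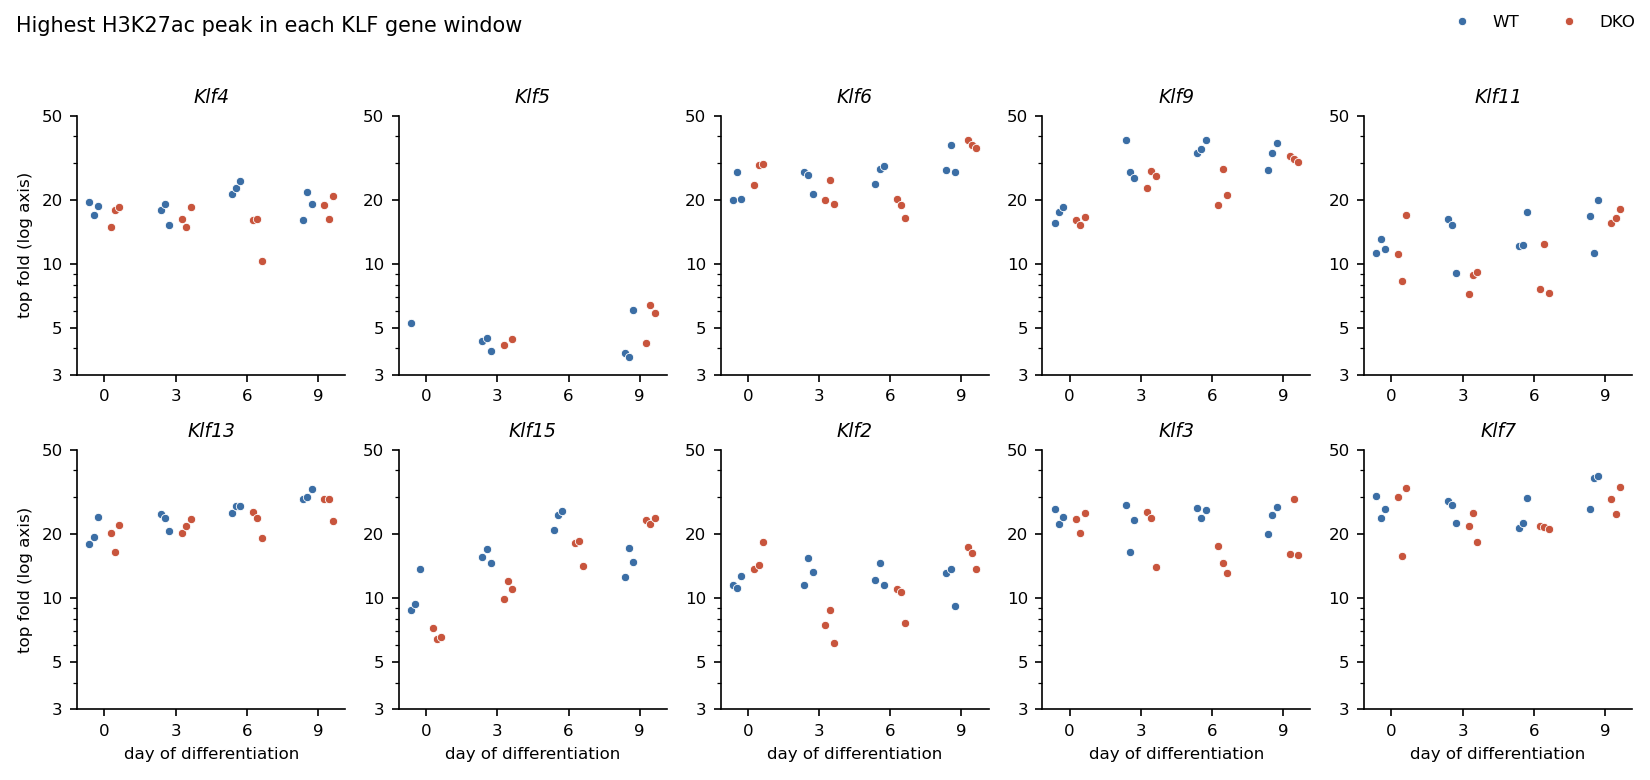
Highest fold enrichment of any H3K27ac peak in each KLF window (log axis, 1 point for each library, WT blue, DKO red) against day of differentiation, with libraries without a peak left out. For Klf15 the DKO points lie below WT at days 0, 3 and 6 and above at day 9, and Klf9 rises between day 0 and day 3 in both genotypes.

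Single regions were compared by the number of libraries that called them. The 10 windows held 120 joined regions, of which 19 were called in all 24 libraries, 50 in only 1 or 2, and 48 in 3 to 21 libraries, the range that was tested. Where a region lay at the gene's start, its median fold was 26.7 for Klf6, 25.7 for Klf9, 25.7 for Klf7, 23.7 for Klf3, 23.1 for Klf13, 15.6 for Klf4, 14.7 for Klf15, 12.2 for Klf11 and 10.1 for Klf2, all called in 24 of 24 libraries, and Klf5 had none. Under the exact conditional test, 0 of the 48 regions differed between genotypes, as did 0% of the 71225 regions tested in the genome, and 1 member region and 3759 regions overall had an unadjusted p under 0.05. That region lay 5.58 kb from the start of Klf4, downstream of the gene (chr4:55526338-55527020), and was called in 8 WT and 3 DKO libraries (p = 0.025, adjusted p = 0.625, exact test).

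Counted without a test, 2 of the 48 regions (4.17%) were called in at least 4 more DKO than WT libraries and 4 (8.33%) in at least 4 more WT libraries, against 2.03% and 13.9% of all regions tested. Both regions with more DKO calls lay upstream of Klf9. The one printed above (chr19:23125399-23126089) was called in 6 DKO and 1 WT libraries, and its neighbour (chr19:23125041-23125324) in 5 DKO and 1 WT. Besides the Klf4 region, those with more WT calls included 1 in an intron of Klf7 (chr1:64096578-64098816, 10 WT and 6 DKO) and 1 in the last exon of Klf13 (chr7:63886499-63887232, 9 and 5). In each of these 3, the DKO day 6 libraries held 0 calls, against 3 in WT. The share of all regions with that pattern was not computed. At day 6 the libraries had a mean of 64728 peaks in DKO and 102083 in WT.

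Between days, of the 48 regions, 9 (18.8%) were called in at least 5 of 6 libraries at day 9 and at most 1 of 6 at day 0, and 1 (2.08%) the reverse, against 12.8% and 7.4% of all regions tested. Klf13 held 5 of the 9. The Klf13 region 2.05 kb upstream of the start (chr7:63940765-63941359) was called in 6 of 6 libraries at day 9, in 1 WT library at day 6 and in none before. The intronic Klf13 region 20.9 kb into the gene was called in 6 of 6 libraries at day 9 and 1 of 6 at day 0, and the promoter-side Klf5 region, 0.301 kb before the start, in 5 and 1. An intronic region of Klf9 (chr19:23161995-23163546) and one downstream of Klf7 (chr1:64020536-64020984) also belonged here, each in 5 of 6 libraries at day 9, as did the Klf4 region named above, in 6 of 6. The reverse case was the Klf7 region 44.2 kb into the gene (chr1:64077878-64079144), over a coding exon of an annotated transcript and the start of the non-coding gene Gm13748. It was called in 6 of 6 libraries at day 0, 4 of 6 at day 3 and 0 of 6 at days 6 and 9. The promoter region of Klf7 held 4.28 ± 0.299 kb at day 0 and 4.45 ± 0.13 kb at day 9 in WT.

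The region printed for Klf15 was named after its values were seen. It lay 30.3 kb from the Klf15 start, in an intron of Aldh1l1 (chr6:90492245-90492997), and was called in 3 of 3 DKO libraries at day 9 and in 0 of the other 21. The folds were 5.04, 4.86 and 4.02, against library medians of 4.78 to 6.38 over all peaks, and the test did not pass (adjusted p = 0.662, exact test).

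**Figure D5:**
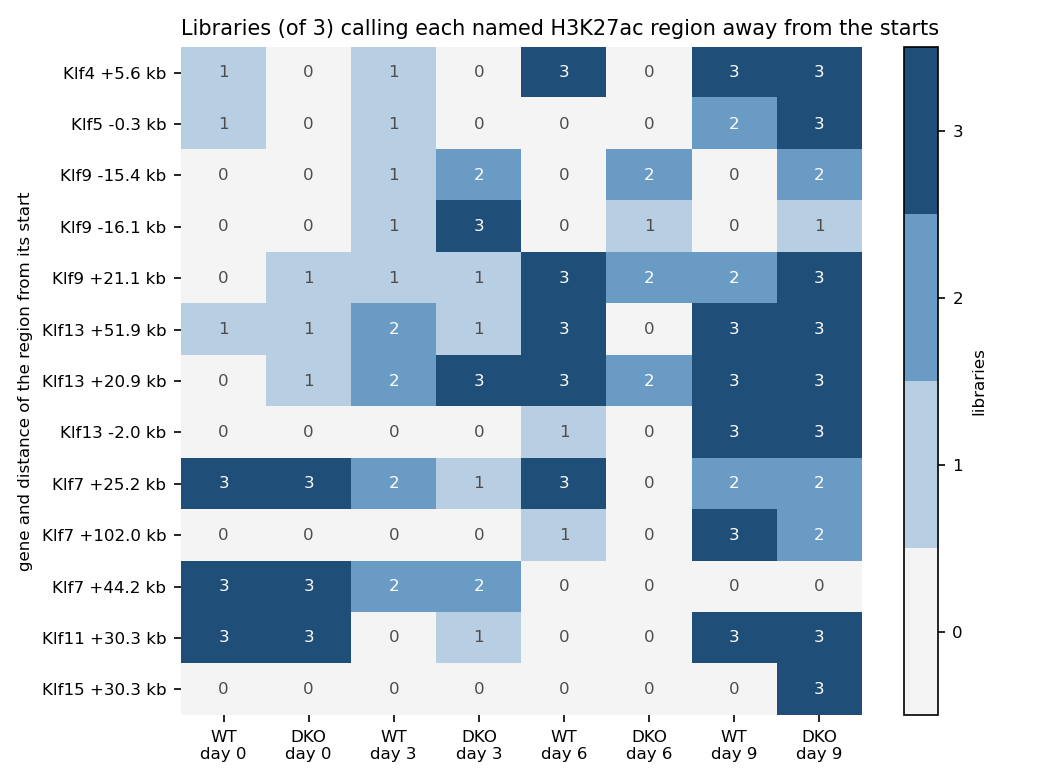
Number of libraries (0 to 3, in each cell) that called each region named in the text away from the gene starts, by genotype and day, with the distance of the region's strongest summit from the start of its gene. The Klf13 region 2.05 kb upstream appears at day 9 in both genotypes, the Klf7 region at 44.2 kb disappears after day 3, and the regions of Klf4, Klf13 (51.9 kb) and Klf7 (25.2 kb) with more WT calls show 0 in DKO at day 6.

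The rest of the KLF and SP family was read as a list of 16 genes. Klf14, Klf17, Sp5 and Sp8 had no peak in any library, and 12 were tested. From day 0 to day 9, 2 gained (Klf12 by 1.28 kb and Sp9 by 0.372 kb, adjusted p = 0.0192 each, exact permutation tests) and 0 lost, beside 17.1% and 16.2% of all genes. From day 0 to day 3, 5 lost (Klf1, Klf16, Sp1, Sp2 and Sp7, by 1.35 to 3.57 kb) and 0 gained, beside 32.8% and 1.47%. From day 6 to day 9, Klf12 gained 1.24 kb (adjusted p = 0.0497, exact permutation test), 1 of 12 beside 10% of all genes. For Sp1 and Sp3, broadly expressed factors of GC-rich promoters, the genotype difference changed with the day (adjusted p = 0.0176 and 0.0274, exact permutation tests), 2 of 12 beside 28.9% of all genes, and none of the 12 passed for DKO against WT over the days, with 1 at an unadjusted p under 0.05. The best peak of Sp1 differed in rank between genotypes (adjusted p = 0.044, exact permutation test).

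Of 10 genes that KLFs act with or on in fat cells, 3 gained from day 0 to day 9, beside 17.1% of all genes. Pparg gained 19.2 kb, Cebpa 11.1 kb and Slc2a4 6.05 kb (adjusted p = 0.0192 each, exact permutation tests). Ctbp1, a corepressor used by KLF3, lost 2.12 kb (adjusted p = 0.0451), and Ctbp2 lost 7.23 kb from day 0 to day 3 (adjusted p = 0.0202, exact permutation tests). From day 3 to day 6, where no gene passed, Pparg rose by 18.5 kb, Cebpa by 10.3 kb and Slc2a4 by 3.58 kb. Each had the smallest p that the test can reach (p = 0.005, adjusted p = 0.0573, exact permutation tests). Slc2a4 also gained 3.04 kb from day 6 to day 9 (adjusted p = 0.0497, exact permutation test). The genotype difference changed with the day for 4, Pparg (adjusted p = 0.0169), Sin3a (0.021), Cebpb (0.0441) and Ctbp1 (0.0457, exact permutation tests), beside 28.9% of all genes, and 0 passed for DKO against WT over the days, with 2 at an unadjusted p under 0.05. At day 6 the Pparg window held 32 ± 2.21 kb in WT against 22.1 ± 8.04 kb in DKO, and at day 9 it held 18.2 ± 3.54 kb against 32.9 ± 2.48 kb (SD, n = 3), so it too was lower in DKO at day 6 and higher at day 9 in the values as deposited. Cebpd, Egr2 and Dlk1 passed none of these tests.

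The genes most like each KLF window over the 24 libraries were named. By Pearson correlation of covered length, among genes with a mean of at least 5 kb, the nearest were Sulf2 for Klf15 (r = 0.988), Gda for Klf13 (0.984), Hdac5 for Klf6 (0.979), Fhl2 for Klf11 (0.975), Gadd45b for Klf2 (0.971), Ttc39c for Klf4 (0.962), Fyn for Klf7 (0.959), A4galt for Klf3 (0.958), E030018B13Rik for Klf9 (0.951) and Mchr1 for Klf5 (0.665). E030018B13Rik lies within the Klf13 window, so the nearest pattern to Klf9 was partly that of Klf13. The 24 points share the total covered length of each library, and these values are descriptions without a test.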

How the data were processed

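H3K27ac ChIP-seq libraries (24, 8 groups of 3) were grouped by the genotype and day in their labels, and 16 input libraries had no file here. The authors trimmed single-end reads (cutadapt 1.18, after bcl2fastq 2.17), aligned them to mm10 with BWA and called narrow peaks in each library with MACS2 2.1.1.20160309, without pooling. The deposited lists give, per peak, the fold enrichment at the summit over local background, and −log10 p and −log10 q as deposited by the authors' peak caller. The lists end at a −log10 q of about 2. Which input served as control was not given in the sources used here, and the lists hold no read counts, so depth was worked back from the fold and p of each peak.

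From these lists, covered kb (the union of peaks), the highest fold and the best rank by −log10 q were computed for each gene of GENCODE M21 with 20 kb either side. A window without a peak was set to fold 1, or to the rank after the last peak. Python 3.11.15, numpy 2.4.6, numba 0.67.0, scipy 1.17.1 and matplotlib 3.10.9 were used. Genotype was permuted within day (160000 relabellings, smallest p 1.25e-05) and day within genotype (400 relabellings, smallest p 0.005). All p-values were two-sided and adjusted by Benjamini-Hochberg over all genes or regions tested, with a threshold of 0.05. Peaks were joined from 1 bp of overlap into regions, and regions called in 3 to 21 libraries were tested. The tests were checked on simulated data.

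The members and lists were chosen with earlier results of these data known. All 10 members were named, other family and partner genes where they passed a test, and regions where they were the strongest at a gene's start, differed in calls between genotypes by at least 4 libraries, or were called in at least 5 of 6 libraries at day 9 and at most 1 at day 0, or the reverse, with up to 2 per gene. The regions at Cys1 and in Aldh1l1 were added after their values were seen, and 1 region that the rule names is not reported here. Alternatives covered the peak threshold, number and width of peaks, window, library scale, left-out libraries and the replicate block.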

Additional observations from a re-analysis of the deposited data

Results flagged for a closer look

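For 5 KLF genes the DKO minus WT difference in covered length changed with the day (exact permutation test, adjusted over all genes), namely Klf6 (adjusted p = 0.0214), Klf2 (0.0237), Klf15 (0.0263), Klf13 (0.0335) and Klf7 (0.0477), beside 28.9% of all genes. In each, DKO lay below WT without overlap at day 6, when the DKO libraries also had the lower total covered length and 66.6% of all genes lay below in the same way. None of the 5 passed after scaling to that total.

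The height of the strongest Klf15 peak lay on opposite sides at different days. On the log2 scale DKO minus WT was −0.633 (day 0), −0.52 (day 3) and −0.482 (day 6) but 0.653 on the last day, and the 3 DKO libraries did not overlap the 3 WT libraries at any of these days. For the top fold of the Klf2 window, which was not always at the Klf2 start, the difference was positive on the first day (0.385) and the last (0.41). It was negative in between (−0.857 for day 3, −0.398 for day 6), again without overlap. The difference between days was not tested for either gene.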

How the results depend on the processing

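Counts of KLF genes that passed are given in the order of the settings. For the genotype difference changing with the day, 5 passed as reported, 0 with the 20000 strongest peaks of each library, 0 with peaks cut to 250 bp either side of the summit, 0 with lengths scaled to the total and 0 with days 0, 3 and 9 only, and 0 to 6 when libraries were left out. For day 9 against day 0 it was 7 as reported, 4 with the 20000 strongest peaks, 2 with cut peaks and 4 to 8 with a library left out. For day 3 against day 0 it was 4 as reported, 2 with the 20000 strongest peaks, 0 with cut peaks, 2 with no flank, 7 when scaled (5 higher and 2 lower) and 0 to 6 with a library left out. For day 9 against day 6 it was 2 as reported, 0 with a −log10 q of at least 5, 0 with the 20000 strongest, 0 with cut peaks, 0 with no flank, 0 with a 5 kb flank and 0 to 5 with a library left out. For day 6 against day 3 it was 0 as reported (4 at an unadjusted p under 0.05, exact permutation test), 1 when scaled, 2 without both libraries that stood apart and 0 to 2 with 1 left out. For DKO against WT it was 0 as reported, 1 when scaled, 1 without both libraries and 0 to 0 with libraries left out. The top fold gave 0 as reported and 0 to 1 with libraries left out. The rank of the best peak and the single regions gave 0 under every alternative run. The settings without both libraries and with 3 days only were chosen after seeing the data.

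Signs turned in 7 cases. Klf6 from day 0 to day 3 was 0.211 kb with cut peaks and 0.639 kb when scaled, and from day 0 to day 9 it was 0.932 kb with cut peaks. Klf11 from day 0 to day 9 was 0.0545 kb with no flank and 0.158 kb with 5 kb, windows that leave out the region at Cys1. Klf7 from day 0 to day 3 was 1.13 kb, a gain that passed (adjusted p = 0.0185, exact permutation test), and Klf9 from day 6 to day 9 −6.23 kb when scaled. The cause was not tested in any of these cases, and the Cys1 region was named after its values were seen. A further 68 signs turned for values that passed in neither fit.

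With the replicate block, 1 KLF gene passed for the difference changing with the day. It was 0 for day 3 against day 0, 0 for day 9 against day 6 and 0 for day 9 against day 0, while no other count moved. The block leaves fewer relabellings of a day step, which raises the smallest p that the test can reach. The members called without the block then shared an adjusted p of 0.0916, 0.183 and 0.0974 at these steps, in that order (exact permutation tests). These 0 counts therefore cannot decide whether the calls hold. Same-numbered samples were not alike throughout: 4 of 12 correlations of same-numbered deviations exceeded 0.1 (−0.801 to 0.874), all at days 0 and 3, and 3 of 12 were best with their own number. The lengths used were not scaled to the total covered length of a library, so this check cannot decide whether the numbers pair the samples. Without a whole replicate number the exact test of the day steps cannot go below p = 0.0556, and the directions of all 7 calls between day 0 and day 9 stayed. Peak lists limit what can be seen, since signal under the caller's threshold has no value and depth was unequal.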
